A study of Mus musculus with 28 samples.

Results

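The effect of Tbl1xr1 loss in germinal center B cells was compared with the effect of the Tbl1xr1 D370Y allele. For each gene the difference between libraries labelled KO and their Cre controls (the KO effect) was set against the difference between libraries labelled mutant and their WT controls (the D370Y effect), and the KO effect minus the D370Y effect was tested in one fit of log2(CPM + 1), where CPM is the read count of a gene scaled to the size of its library. The comparison used 18 of the 28 libraries of the series: 5 KO, 5 Cre control, 5 D370Y and 3 WT. The other 10 libraries, 5 ImuBcl6 D370Y and 5 ImuBcl6, stayed outside that fit and were used for values side by side.

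All 18 libraries came from mouse germinal center B cells that carry 1 copy of a Cg1Cre allele, written Cg1Cre(+/-) in the labels, so the controls carry the Cre too. The D370Y libraries are Tbl1xr1(D370Y/WT), with 1 mutant copy, and the KO libraries are Tbl1xr1(KO/KO). The WT and Cre control libraries have the same genotype label, Tbl1xr1(WT/WT), and were deposited as controls of different experiments. The 10 remaining libraries carry ImuBCL6, a Bcl6 transgene, on top of Cg1Cre(+/-) and either Tbl1xr1(D370Y/WT) or Tbl1xr1(WT/WT). Cg1Cre is a Cre recombinase expressed from the Ighg1 locus and is active in B cells that have entered the germinal center response. Age, strain, immunisation and sorting gate are not given in the sources used here, nor is it stated that replicates were separate mice, so p-values measure the spread between these libraries, which may be technical. Because each allele has its own controls and its own library set, the allele and the experiment cannot be told apart in the difference, and it sets 1 mutant copy against loss of both copies.

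TBL1XR1 is a WD-repeat subunit of the SMRT and NCOR corepressor complexes, which hold the histone deacetylase HDAC3 and silence the targets of nuclear receptors and of other repressors. In germinal center B cells one of these repressors is BCL6, which keeps activated B cells in the germinal center and holds down genes of exit towards memory and plasma cells. TBL1XR1 is mutated in B cell lymphomas, and D370Y is a missense change within its WD-repeat domain. The comparison asks where a changed protein and a missing one have different effects on the transcriptome.

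The targeted transcript was not lower in the libraries labelled KO. Tbl1xr1 stood at 94.4, 105, 127, 89.7 and 93.0 CPM in KO 1 to 5 and at 80.6, 94.5, 85.7, 88.4 and 80.8 CPM in Cre control 1 to 5. It stood at 165, 140, 141, 135 and 146 CPM in the D370Y libraries and at 156, 171 and 176 CPM in WT. The KO effect on this gene was 0.23 ± 0.09 (SE, adjusted p = 0.248), the D370Y effect was -0.21 ± 0.11 (adjusted p = 0.476), and the difference of 0.44 ± 0.14 was not called (adjusted p = 0.336). The labels do not say which part of the gene the KO allele removes, so these values do not check them. Bcl6 did not differ detectably between effects (difference 0.05 ± 0.13, 95% interval -0.21 to 0.31).

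The KO libraries held 27052968 to 34307911 reads on listed genes and the Cre controls 30026697 to 31999604, against 19193288 to 22227383 in D370Y and 19022495 to 19429031 in WT, so the D370Y arm was shallower and its WT group had 3 libraries. The B cell markers summed to 5407 to 8147 CPM and the 20 germinal center markers to 4540 to 7460 CPM, and none of either list was at 0 in any of the 4 groups. KO 3 stood apart: its root mean square log2 deviation from its group mean was 0.43 against 0.093 to 0.21 in the other 17 libraries, and 64.4% of its reads lay on listed genes against 78.7% to 84.6%. Malat1, a nuclear long non-coding RNA, was at 1633 CPM in KO 3 against 26.3 to 149 CPM in the other KO libraries. All 5 D370Y libraries had more Xist than Ddx3y and all 3 WT libraries had more Ddx3y than Xist, so sex and genotype cannot be told apart in that arm; Xist was the higher one in 2 of 5 KO and 4 of 5 Cre control libraries. For this reason the test used 10580 autosomal genes with at least 1 CPM in 3 or more libraries. Of these, 86 reached 1 CPM in exactly 3 libraries, and 96 further autosomal genes reached it in 2 and were left out.

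Promoter sequence is given for 3 genes that stand for the patterns described below. Plac8 was raised with D370Y and had no called KO effect. Emp2 was lowered with KO and had no called D370Y effect outside ImuBcl6 cells. Pde2a was lowered with both. Each run is the 250 bases before the RefSeq transcription start (GRCm38.p6), 5′ to 3′ on the strand of the gene, with matches to CCAAT or GGGCGG on either strand in capitals. Plac8 lies at chr5:100572206-100572455 (minus strand), Emp2 at chr16:10313969-10314218 (minus strand) and Pde2a at chr7:101421441-101421690 (plus strand).
Plac8: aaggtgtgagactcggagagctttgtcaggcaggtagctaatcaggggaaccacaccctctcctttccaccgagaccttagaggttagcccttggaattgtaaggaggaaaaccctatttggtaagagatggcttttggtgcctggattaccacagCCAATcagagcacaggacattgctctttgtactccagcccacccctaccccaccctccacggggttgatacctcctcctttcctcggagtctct
Emp2: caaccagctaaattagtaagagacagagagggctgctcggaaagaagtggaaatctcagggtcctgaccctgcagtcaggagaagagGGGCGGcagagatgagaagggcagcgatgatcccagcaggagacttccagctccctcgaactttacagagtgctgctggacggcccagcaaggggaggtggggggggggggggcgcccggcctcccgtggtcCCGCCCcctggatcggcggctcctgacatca
Pde2a: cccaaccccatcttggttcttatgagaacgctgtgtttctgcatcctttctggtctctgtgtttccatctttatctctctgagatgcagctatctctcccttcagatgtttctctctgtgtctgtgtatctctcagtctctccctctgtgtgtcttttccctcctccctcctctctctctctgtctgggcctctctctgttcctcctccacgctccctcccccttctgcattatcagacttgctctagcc
The Plac8 run holds 1 CCAAT box, 94 to 90 bases before the start, and the Emp2 run holds 2 GGGCGG boxes, at 163 to 158 and at 31 to 26 bases. Over 32851 promoters of this length, 33.8% hold CCAAT and 32.7% hold GGGCGG. Of the 13 genes with a called difference, 8 had an entry in the promoter table; 4 of the 8 held CCAAT, 3 held GGGCGG and none held TTCNNNGAA, the palindrome of STAT factors that BCL6 sites resemble, which 7.02% of the promoters hold. These matches describe letters and not binding.

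Most genes called with one allele had the same sign with the other, where most of them were not called. A called difference was found for 13 genes, 0.123% of those tested. Called means adjusted p below 0.05 (limma with Benjamini-Hochberg adjustment over all genes tested, two-sided). In all 13 the KO effect lay below the D370Y effect, and no gene had a called difference the other way. Among them, Cxcl10 and Capn11 passed the filter only through D370Y, where they were high. Their direction therefore lends no support to this imbalance. At an unadjusted p below 0.05 the split was 602 lower and 47 higher, and the smallest adjusted p of a gene with a higher KO effect was 0.151. The median difference over all genes was -0.0464 and 63.5% of genes lay below 0. Both the median and the unadjusted split depended on scaling and on KO 3. With TMM scaling, which aligns the libraries on genes of steady level, the median was 0.04 and the split 446 lower to 271 higher. Without KO 3 the median was 0.01, the split was 610 to 436, and 21 genes were called, 18 lower and 3 higher. With a term for sex none of the 13 was called and no other gene was (742 higher and 1324 lower at an unadjusted p below 0.05). That term is estimated only from the KO and Cre control libraries, because D370Y and WT each hold 1 pattern of Xist and Ddx3y. KO 3 is 1 of the 2 KO libraries with more Xist. The fit therefore cannot separate sex from genotype in the D370Y arm, where its values rest on the KO arm.

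The single effects had similar numbers of calls and opposite balances. KO raised 74 genes (0.699% of those tested) and lowered 169 (1.6%), 2.3% in all, while D370Y raised 207 (1.96%) and lowered 35 (0.331%), 2.29% in all. That balance depended on scaling: with TMM scaling the share of calls that were higher went from 30.5% to 49.8% for KO and from 85.5% to 64.6% for D370Y. Without KO 3, which also enters the shared estimate of spread, the counts were 451 (50.8% higher) for KO and 576 (67.5% higher) for D370Y. With a term for sex, estimated from the KO arm alone, the D370Y count was 57 and the KO count 315. The 2 lists shared 58 genes, which are 23.9% of the KO calls and 23.97% of the D370Y calls; 35 were higher in both, 21 were lower in both and 2 went in opposite directions. Across the 10580 genes the effects had a Pearson correlation of 0.444 and a Spearman correlation of 0.414, as a description over genes, which are not independent replicates; the 2 arms share no library.

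Genes called with one allele mostly had the same sign with the other. Of the 207 genes raised by D370Y, 166 (80.2%) had a KO effect above 0, against 31.1% of all genes, with a median KO effect of 0.19. With KO, 35 of the 207 were called higher and 2 lower. Of the 35 lowered by D370Y, 1 had a KO effect above 0 and 21 were also called lower with KO, with a median KO effect of -0.46. Of the 74 genes raised by KO, 70 had a D370Y effect above 0, against 46.3% of all genes, and of the 169 lowered by KO, 27 did. Of the 13 genes with a called difference, 10 were D370Y calls, 5 were KO calls, and 2 of these were both.

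**Figure D1:**
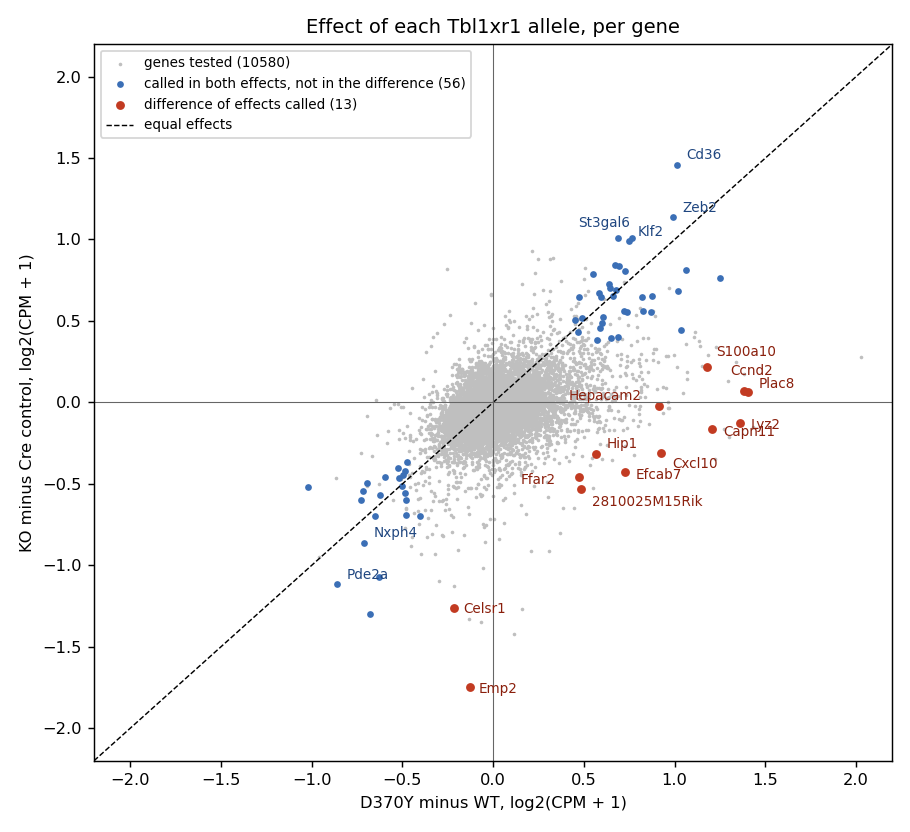
KO effect (vertical axis) against D370Y effect (horizontal axis) for 10580 autosomal genes, both as log2 fold change on the log2(CPM + 1) scale, with the line of equal effects dashed. The 13 genes with a called difference (red) lie below the line, and 56 genes called in both effects without a called difference (blue) lie along it.

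Of the 13 genes, 7 rose with D370Y while KO had no called effect on them: Plac8, Ccnd2, S100a10, Hepacam2, Lyz2, Cxcl10 and Capn11. A further pair, Emp2 and Celsr1, fell with KO without a called D370Y effect. Efcab7 and Ffar2 moved in opposite directions with the 2 alleles, and Hip1 and 2810025M15Rik had effects of opposite sign of which one was called. The values of each library follow, as CPM, and effects are log2 fold changes on the log2(CPM + 1) scale with SE, a scale on which low genes change less than in fold.

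Plac8 was the clearest of these. It encodes a small cysteine-rich protein of lymphoid and myeloid cells and lies at chr5:100553725-100572245 (mm10, minus strand). Its level was 68.2, 84.6, 85.7, 75.2 and 57.5 CPM in the D370Y libraries and 26.2, 26.9 and 28.5 CPM in WT, with no overlap, as for 14.7% of all genes between D370Y and WT and 4.26% between KO and Cre control. In KO it was 26.1, 36.7, 24.7, 36.2 and 23.6 CPM, within the range set by Cre controls at 29.7, 31.5, 24.8, 22.4 and 31.0 CPM for 3 of the 5 libraries and above it in the other two. The D370Y effect was 1.4 ± 0.15 (adjusted p = 1.34e-05), the KO effect was 0.06 with a 95% interval of -0.21 to 0.33, and the difference was -1.34 ± 0.20 (adjusted p = 0.00243).

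Ccnd2, which encodes cyclin D2, the partner of CDK4 and CDK6 in G1 and a known BCL6 target, behaved alike in numbers (chr6:127125162-127152193, minus strand). It stood at 57.1, 51.3, 43.1, 48.3 and 30.8 CPM in D370Y against 16.0, 17.2 and 16.9 CPM in WT. KO libraries held 23.3, 22.9, 20.5, 22.4 and 21.8 CPM and Cre controls 19.9, 21.6, 20.7, 19.3 and 24.4 CPM. The D370Y groups did not overlap, even in the lowest library, D370Y 5, and the KO groups did. The difference was -1.32 ± 0.18 (adjusted p = 0.000611), from a D370Y effect of 1.38 ± 0.13 and a KO effect of 0.07 (interval -0.17 to 0.31). Antisense transcripts are annotated over its exons, and their reads may be counted with it if strand was not used, a setting not given in the sources used here.

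S100a10 encodes the small partner of annexin A2 at the cell membrane (chr3:93555080-93564643, plus strand). It was 20.6, 25.3, 24.8, 21.7 and 18.6 CPM in D370Y against 9.17, 8.69 and 9.75 CPM in WT, while KO at 9.31 to 15.8 CPM overlapped Cre controls at 9.46 to 13.9 CPM. The KO effect was 0.22 with an interval of -0.04 to 0.48, so a smaller rise with KO is within the error, and the difference was -0.96 ± 0.19 (adjusted p = 0.0425).

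Hepacam2, an immunoglobulin-superfamily membrane protein (chr6:3457096-3498298, minus strand), was at 3.57, 6.71, 5.72, 4.75 and 4.81 CPM in D370Y against 2.37, 2.45 and 1.82 CPM in WT. It lay between 1.14 and 1.4 CPM in KO and between 0.995 and 1.56 CPM in Cre controls, and the difference was -0.93 ± 0.18 (adjusted p = 0.0423). Its level in both control groups was low, and the Cre controls lay below WT, so the arms start from different levels.

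Lyz2 encodes the lysozyme of macrophages and neutrophils (chr10:117277331-117282321, minus strand) and is no B cell gene. It stood at 4.31, 4.65, 3.72, 2.41 and 6.14 CPM in D370Y against 1.25, 0.818 and 0.931 CPM in WT. KO libraries held 0.863 to 2.44 CPM and Cre controls 1.17 to 2.61 CPM. The difference was -1.49 ± 0.29 (adjusted p = 0.0452), and it was not called without KO 3 (adjusted p = 0.0521). Lyz1 is a near-identical copy, so reads may be split between them. The summed level of the 15 myeloid markers was also higher in D370Y than in WT: it was 126 to 144 CPM against 72.6 to 88.6 CPM, and 110 to 237 CPM in KO against 130 to 187 CPM in Cre control, with no marker at 0 throughout a group. The part of other cells in the D370Y rises was not tested, and in bulk RNA more cells of a type cannot be told apart from more RNA per cell.

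Cxcl10 and Capn11 were called at low levels and fall outside the rule for named genes; they are named because the list of called genes is short. Cxcl10, an interferon-induced chemokine (chr5:92346638-92348889, minus strand), was 1.52 to 2.54 CPM in D370Y and 0.310 to 0.904 CPM in WT, and 0.247 to 0.525 CPM in KO against 0.190 to 1.42 CPM in Cre control (difference -1.24 ± 0.23, adjusted p = 0.0312). An exon of Art3 lies over it on the other strand. Outside D370Y, Cxcl10 reached 1 CPM only in Cre control 2 (1.07 CPM) and Cre control 5 (1.42 CPM). It thus passed the filter of 3 libraries only through D370Y. Capn11, a calpain protease best known from testis (chr17:45630204-45659325, minus strand), passed the filter only through D370Y, at 1.22, 1.80, 1.15, 0.934 and 1.72 CPM. It was at 0 in all 5 KO libraries and 4 of 5 Cre controls, with 0.760 CPM in Cre control 3, and at 0 or 0.0430 CPM in WT. Its difference of -1.37 ± 0.21 (adjusted p = 0.00354) depends on the pseudocount of 1 and gives no fold.

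**Figure D2:**
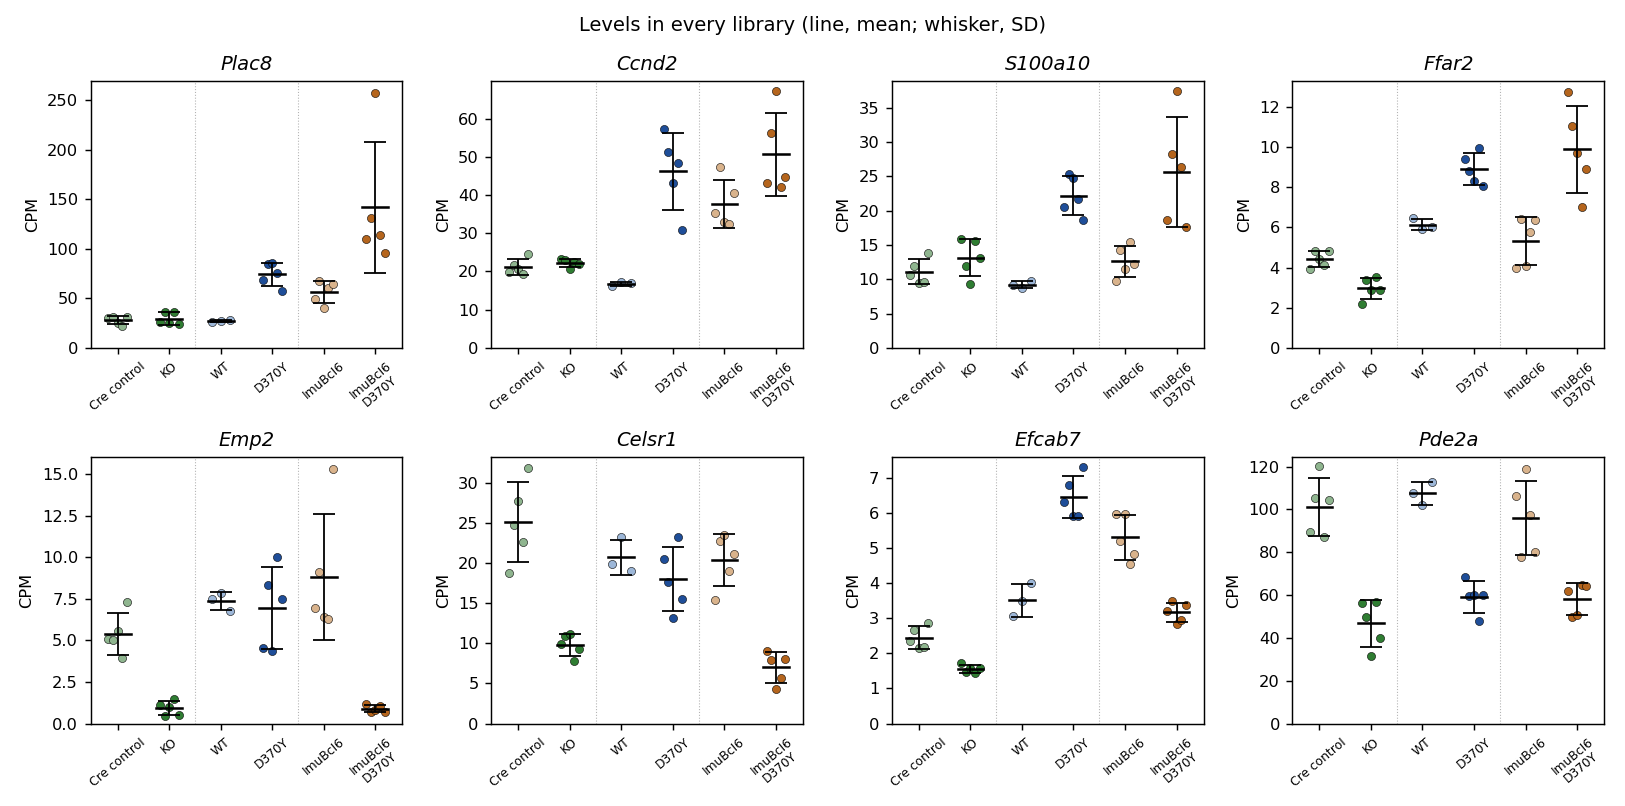
CPM of 8 genes in every library of the 6 groups, with the group mean as a line and the SD as a whisker; each panel starts at 0. Plac8, Ccnd2 and S100a10 are raised in D370Y over WT with KO at the level of Cre controls, Emp2 and Celsr1 are lowered in KO with D370Y at the level of WT, Ffar2 and Efcab7 move in opposite directions, and Pde2a is lowered with both alleles.

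Emp2 and Celsr1 showed the reverse arrangement: KO lowered them and D370Y without ImuBcl6 did not detectably change them. Emp2 encodes a tetraspan membrane protein (chr16:10281749-10313968, minus strand). It was at 1.13, 0.467, 0.976, 1.46 and 0.525 CPM in KO and at 5.08, 5.03, 5.58, 3.93 and 7.33 CPM in Cre control, with a wide gap between the groups. D370Y libraries, at 4.53, 8.34, 4.34, 10.05 and 7.51 CPM, lay on both sides of WT, at 7.49, 7.83 and 6.78 CPM. The KO effect was -1.75 ± 0.19 (adjusted p = 9.37e-06), the D370Y effect was -0.13 with an interval of -0.58 to 0.32, and the difference was -1.62 ± 0.29 (adjusted p = 0.0213).

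Celsr1 encodes a large cadherin of planar cell polarity (chr15:85898929-86033777, minus strand). It was 9.89, 10.9, 11.2, 7.82 and 9.37 CPM in KO against 18.8, 24.8, 27.7, 22.6 and 31.9 CPM in Cre control. It was 20.5, 17.7, 13.1, 23.3 and 15.5 CPM in D370Y against 19.9, 23.2 and 19.1 CPM in WT, which overlap. The KO effect was -1.26 ± 0.14, the D370Y effect was -0.22 (interval -0.55 to 0.12) and the difference was -1.04 ± 0.21 (adjusted p = 0.0452).

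Both genes belong to a list of 20 tested cell shape, contact and adhesion genes, which was drawn up with earlier results of these data known. KO lowered 7 of the 20 (1.6% of all genes) and raised 2 (0.699% of all genes). D370Y raised 5 (1.96% of all genes) and lowered 1 (0.331%). The difference was called for 3 (Emp2, Celsr1 and S100a10), against 0.123% of all genes, and for none with TMM scaling; it was below 0 for 19, against 63.5% of all genes. Fscn1 and Myzap of the list, named after their values were seen, came near the threshold. Fscn1, which bundles actin, had a KO effect of -1.01 ± 0.15 and a D370Y effect of -0.06 ± 0.17 (difference -0.96 ± 0.23, adjusted p = 0.0995). Myzap, a protein of cell junctions, had a KO effect of -1.13 ± 0.14 and a D370Y effect of -0.21 ± 0.16 (difference -0.92 ± 0.21, adjusted p = 0.0951). Neither difference passed the test; with DESeq2 both were called (adjusted p = 0.0482 for Fscn1 and 0.0186 for Myzap), as was Fscn1 without D370Y 3 or without Cre control 1 and Myzap without D370Y 5, with a replicate block or with library weights.

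Efcab7 and Ffar2 were called in both effects with opposite signs. Efcab7 encodes an EF-hand protein that takes part in Hedgehog signalling at the cilium (chr4:99829198-99912788, plus strand). KO lowered it, from 2.34, 2.67, 2.15, 2.17 and 2.87 CPM in Cre control to 1.73, 1.47, 1.57, 1.44 and 1.57 CPM. D370Y raised it, from 3.06, 3.49 and 3.99 CPM in WT to 6.30, 6.79, 5.91, 5.92 and 7.30 CPM. Neither pair of groups overlapped. The effects were -0.42 ± 0.10 and 0.72 ± 0.11, and the difference of -1.15 ± 0.15 (adjusted p = 0.00059) had the smallest p of all genes tested.

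Ffar2 encodes a receptor for short-chain fatty acids (chr7:30818348-30823775, minus strand). It fell from 3.93, 4.82, 4.40, 4.15 and 4.81 CPM in Cre control to 2.19, 3.39, 2.88, 3.53 and 2.86 CPM in KO. It rose from 6.45, 5.94 and 6.03 CPM in WT to 9.39, 8.80, 8.33, 9.97 and 8.07 CPM in D370Y. The effects were -0.46 ± 0.10 (adjusted p = 0.0131) and 0.47 ± 0.12 (adjusted p = 0.0298), and the difference was -0.93 ± 0.15 (adjusted p = 0.00821).

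In the other two called genes only one effect passed on its own. Hip1, an endocytic adaptor that binds clathrin and actin (chr5:135406531-135545120, minus strand), was 9.28, 7.42, 5.83, 9.66 and 8.80 CPM in D370Y against 4.99, 5.16 and 5.23 CPM in WT. It was 5.45 to 6.66 CPM in KO against 6.73 to 8.68 CPM in Cre control, also without overlap, though that effect of -0.32 ± 0.11 was not called (adjusted p = 0.179). The difference was -0.88 ± 0.17 (adjusted p = 0.0336). 2810025M15Rik, a transcribed processed pseudogene (chr1:157412352-157420236, plus strand) with an exon of Rasal2 over it on the other strand, fell with KO by 0.53 on the log2 scale and had a D370Y effect of 0.48 ± 0.15 that was not called (adjusted p = 0.0945). Its difference was -1.02 ± 0.20 (adjusted p = 0.0336); reads of a processed pseudogene may belong to its parent gene.

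The ImuBcl6 libraries give the D370Y effect in cells outside the fit, and they divided the 13 genes. In them 285 genes were raised (2.75% of 10347 tested) and 544 lowered (5.26%), 8.01% in all. The D370Y rise was called there too for Plac8 (1.25 ± 0.23, adjusted p = 0.00711), S100a10 (0.93 ± 0.18, adjusted p = 0.0101), Ffar2 (0.78 ± 0.16, adjusted p = 0.0109) and Lyz2 (0.75 ± 0.16, adjusted p = 0.0144). Plac8 stood at 96.1 to 258 CPM in ImuBcl6 D370Y and at 40.4 to 67.3 CPM in ImuBcl6. For Ffar2 the KO effect was below the ImuBcl6 D370Y effect by 1.24 ± 0.18, again called (adjusted p = 0.00053, in a test that called 0.0831% of genes lower and 0.12% higher, 0.203% in all), whereas for Plac8 that difference of -1.18 ± 0.28 was not (adjusted p = 0.103).

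Emp2 and Celsr1 fell with D370Y in the ImuBcl6 cells, as they did with KO. Emp2 was 0.702 to 1.18 CPM in ImuBcl6 D370Y against 6.27 to 15.3 CPM in ImuBcl6 (-2.31 ± 0.20, adjusted p = 0.000107). Celsr1 was 4.34 to 9.04 CPM against 15.5 to 23.5 CPM (-1.44 ± 0.17, adjusted p = 0.00118). Tested directly, the D370Y effect differed between the ImuBcl6 and the other cells for both, by -2.18 ± 0.31 for Emp2 (adjusted p = 0.000234) and by -1.23 ± 0.24 for Celsr1 (adjusted p = 0.0171), in a test that called 0.332% of 10832 genes lower and 0.0277% higher, 0.36% in all. The KO effect and the ImuBcl6 D370Y effect did not differ detectably for Emp2 (0.56 ± 0.29, adjusted p = 0.648) or Celsr1 (0.18 ± 0.23, adjusted p = 0.835).

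For Efcab7, Capn11 and 2810025M15Rik the D370Y effect changed sign between the 2 backgrounds, as did that of Cxcl10, which was not called in ImuBcl6 cells. Efcab7 had an ImuBcl6 D370Y effect of -0.59 ± 0.10 (adjusted p = 0.00436), with 2.82 to 3.48 CPM against 4.55 to 5.96 CPM. Capn11 was at 0 in all 5 ImuBcl6 D370Y libraries and at 2.33 to 4.47 CPM in ImuBcl6. 2810025M15Rik, with no called D370Y effect outside ImuBcl6 cells, was 6.13 to 7.17 CPM in ImuBcl6 D370Y against 7.26 to 11.3 CPM in ImuBcl6. The libraries with more Xist than Ddx3y are the D370Y ones without ImuBcl6 and the ImuBcl6 ones without D370Y. Efcab7, Capn11, 2810025M15Rik and Cxcl10 had their higher mean in that group of each pair. So did some named genes without a called difference, among them 1700048O20Rik. In the KO arm, which holds both patterns, only Cre control 3, with more Xist, had Capn11 reads. Efcab7 there was 1.47 and 1.57 CPM in KO 2 and KO 3, with more Xist, against 1.44 to 1.73 CPM in the other KO libraries. It was 2.17 CPM in Cre control 4, with more Ddx3y, against 2.15 to 2.87 CPM in the other Cre controls. The part of sex in this was not tested. Ccnd2 (0.41 ± 0.14, adjusted p = 0.0879), Hepacam2 (0.42 ± 0.16, adjusted p = 0.125), Cxcl10 (-0.19 ± 0.22, adjusted p = 0.656) and Hip1 (0.03 ± 0.14, adjusted p = 0.932) had no called D370Y effect in ImuBcl6 cells, and for Ccnd2 the D370Y effects of the 2 backgrounds differed by -0.98 ± 0.20 (adjusted p = 0.0171).

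**Figure D3:**
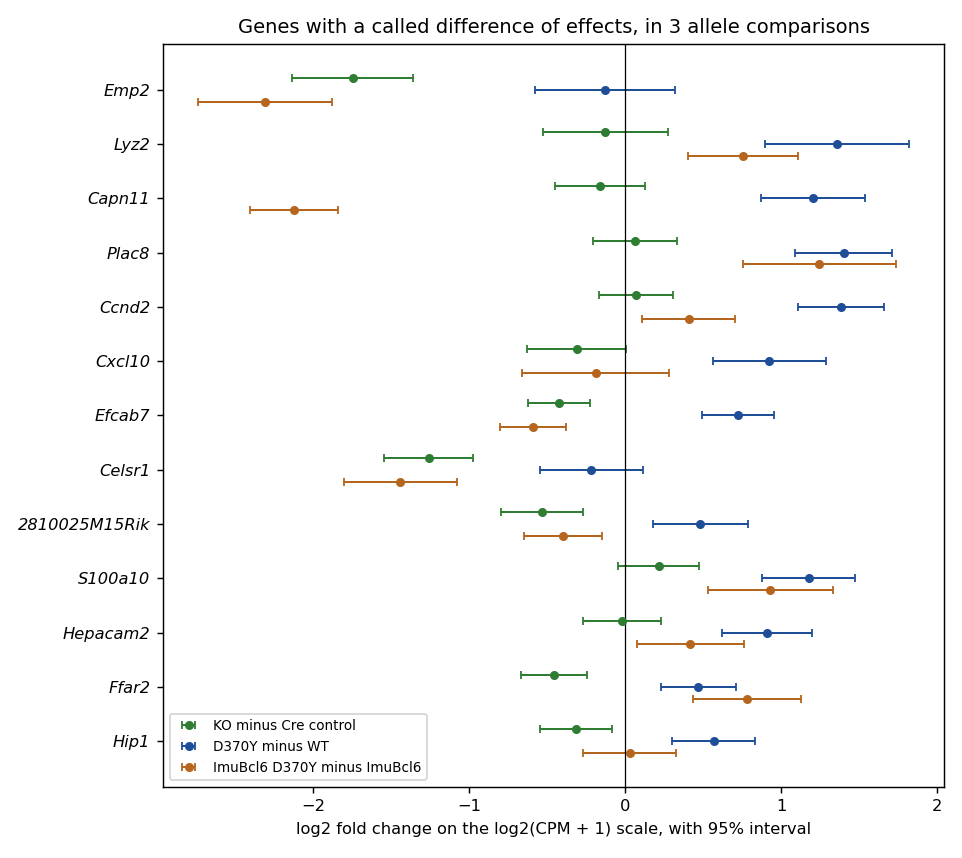
Log2 fold change on the log2(CPM + 1) scale, with its 95% interval, of the 13 genes with a called difference, for KO minus Cre control, D370Y minus WT and ImuBcl6 D370Y minus ImuBcl6. The orange points lie near the blue ones for Plac8, S100a10 and Ffar2, and near the green ones for Emp2 and Celsr1.

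Of the 58 genes called in both effects, 56 moved the same way and none of those had a called difference. The naming rule takes the 10 of the 56 with the largest smaller effect: Cd36, Zeb2, Tmem26, St3gal6, Klf2, Abcg1, 1700048O20Rik and A430078G23Rik, which rose, and Pde2a and Nxph4, which fell. Their differences lay between -0.49 (1700048O20Rik) and 0.44 (Cd36), and 50 of the 58 genes called in both had a 95% interval of the difference that held 0. An interval that holds 0 leaves room for unequal effects, and for Cd36 it ran from -0.21 to 1.1. Of the 10 named genes, only 1700048O20Rik had group means ordered the other way in ImuBcl6 cells. They were 5.04 CPM in ImuBcl6 D370Y and 8.53 CPM in ImuBcl6.

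Pde2a, the cGMP-stimulated phosphodiesterase that breaks down cAMP and cGMP, fell from 86.9 to 120 CPM in Cre control to 56.5, 49.8, 31.6, 56.6 and 39.9 CPM in KO. It fell from 108, 102 and 113 CPM in WT to 68.4, 59.7, 59.9, 47.8 and 60.2 CPM in D370Y. Neither pair overlapped, the effects were -1.12 ± 0.13 and -0.86 ± 0.15, and the difference was -0.26 (interval -0.68 to 0.16).

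Zeb2, a transcription factor of atypical memory B cells, rose from 4.17 to 5.81 CPM in Cre control to 11.6, 13.0, 15.7, 13.0 and 9.92 CPM in KO, and from 14.7, 12.6 and 15.6 CPM in WT to 35.1, 27.7, 25.8, 31.5 and 27.5 CPM in D370Y. The effects were 1.14 ± 0.11 and 0.99 ± 0.13, with a difference of 0.14 (interval -0.21 to 0.50). The KO libraries reached only the level of the WT controls of the other experiment, so the 2 control groups started apart although their genotype label is the same.

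Cd36, the fatty acid and oxidised lipoprotein receptor, had the same feature. It was 29.0, 35.9, 26.8, 37.5 and 22.01 CPM in KO against 7.34 to 12.2 CPM in Cre control, and 80.5, 79.6, 94.3, 94.6 and 189 CPM in D370Y against 43.6, 49.3 and 57.3 CPM in WT. Abcg1, the cholesterol exporter and target of the LXR receptors, rose with KO (0.84 ± 0.13) and D370Y (0.69 ± 0.15). Klf2, the regulator of lymphocyte trafficking, rose by 0.99 ± 0.13 with KO and 0.75 ± 0.15 with D370Y, from control levels that lay side by side (22.1 to 28.4 CPM in Cre control, 19.1 to 23.9 CPM in WT). St3gal6 encodes a sialyltransferase, and its effects were 1.01 ± 0.12 and 0.77 ± 0.14.

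Gene lists were read by their counts and medians beside those of all genes; they were drawn up with earlier results of these data known and were not tested as lists. Over all genes tested the median KO effect was -0.06 and the median D370Y effect -0.01; KO raised 0.699% and lowered 1.6%, D370Y raised 1.96% and lowered 0.331%, and 63.5% of differences were below 0. These values are the background for each count and median of a list. Among 24 memory B cell genes, KO raised 7 and lowered 1 and D370Y raised 9, with medians of 0.23 and 0.55, and no difference was called. S1pr1, the receptor for egress from lymphoid tissue, rose by 0.65 ± 0.09 with KO and 0.87 ± 0.11 with D370Y. Gpr183, the oxysterol receptor that positions B cells outside the follicle centre, rose by 0.65 ± 0.09 and 0.82 ± 0.11. Tbx21, the T-bet factor of atypical memory cells, had the smallest p of the list at -1.01 ± 0.24 (adjusted p = 0.113). It was called without KO 4 (adjusted p = 0.0199), without Cre control 1 (0.0337) and with library weights (0.0157).

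Each allele raised 7 of 17 naive and follicular genes (against 0.699% of all genes for KO and 1.96% for D370Y) and lowered none, with medians of 0.32 (KO) and 0.30 (D370Y). Of 18 germinal center genes KO lowered 2 and D370Y lowered 3 and raised 1 (Gpr55), with medians of -0.20 and -0.17. Gcet2, a germinal center signalling adaptor also called Gcsam, fell from 285 to 331 CPM in Cre control to 169 to 233 CPM in KO, and from 501 to 554 CPM in WT to 304 to 457 CPM in D370Y. The median difference was 0.03 for the naive and 0.01 for the germinal center list. These medians were 0.12 and 0.11 with TMM scaling, and -0.12 and -0.15 with a term for sex, with which the median of all genes was -0.19.

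The lists with the most uneven medians were the myeloid and the plasma cell genes. Of 13 tested myeloid genes all 13 had a difference below 0, with medians of -0.01 for KO and 0.68 for D370Y; D370Y raised 4 (1.96% of all genes) and the difference was called for Lyz2 alone. Without KO 3, 12 of the 13 were below 0 and none was called. Itgam, the integrin chain CD11b, was 8.51, 8.30, 5.76, 5.26 and 2.71 CPM in D370Y against 1.64, 1.72 and 1.42 CPM in WT, and 1.74 to 2.45 CPM in KO against 1.26 to 2.82 CPM in Cre control (difference -1.21 ± 0.29, adjusted p = 0.121). Emr1, the macrophage receptor F4/80, had Cre controls at 6.76 to 9.36 CPM and WT at 3.24 to 3.74 CPM, and its difference was -1.16 ± 0.32 (adjusted p = 0.228). Neither passed the test. Without D370Y 5 both were called (Itgam -1.42, adjusted p = 0.00478; Emr1 -1.34, adjusted p = 0.0261), as they were with a replicate block (adjusted p = 0.0020 for both) and with library weights (0.0126 and 0.0168), and Itgam was with DESeq2 (adjusted p = 0.0494).

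Of 20 plasma cell genes all 20 had a difference below 0 (63.5% of all genes; 19 of the 20 without KO 3 or with TMM scaling), with medians of -0.15 for KO and 0.19 for D370Y, but no difference was called. KO raised 1 and lowered 1, and D370Y raised 3 (1.96% of all genes). Irf4, the factor that drives plasma cell fate, had a D370Y effect of 0.52 ± 0.10 (adjusted p = 0.00492) and a KO effect of -0.05 ± 0.09, with a difference of -0.57 ± 0.13 (adjusted p = 0.0995; 0.0342 without D370Y 5 and 0.00419 with library weights). The summed level of the 20 genes was 2249 to 3405 CPM in KO against 3000 to 3612 CPM in Cre control, and 3698 to 5796 CPM in D370Y against 4020 to 4397 CPM in WT. The groups overlap in both arms.

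Among 20 interferon-stimulated genes the difference was below 0 for 17, with a median of -0.29. The median went to 0.00 with a sex term, which is estimated from the KO arm alone. D370Y raised 2 (1.96% of all genes) and KO none, and no difference was called. Pml, which builds nuclear bodies, had a D370Y effect of 1.34 ± 0.20 and a KO effect of 0.25 ± 0.18 (difference -1.09 ± 0.27, adjusted p = 0.138; 0.0143 without D370Y 5, 0.0220 with library weights and 0.00279 with a replicate block). Among 20 BCL6 targets D370Y raised 6 (1.96% of all genes) and KO raised 3 (0.699% of all genes), with medians of 0.26 and -0.02, and Ccnd2 had the only called difference. Fcrl5, an inhibitory Fc receptor-like protein, rose with D370Y (1.15 ± 0.16) with a KO effect of 0.23 ± 0.14 and an uncalled difference of -0.93 ± 0.21 (adjusted p = 0.0753). The Fcrl5 difference was called without D370Y 5, KO 2 or Cre control 4 and with a pseudocount of 4, a replicate block or library weights (adjusted p = 0.00433 to 0.0405). The G1/S and G2/M lists, with 18 genes each, had median differences of 0.07 and 0.05 and no call in either effect. These medians were 0.15 and 0.15 without KO 3, 0.16 and 0.14 with TMM scaling, and -0.17 and -0.04 with a term for sex.

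**Figure D4:**
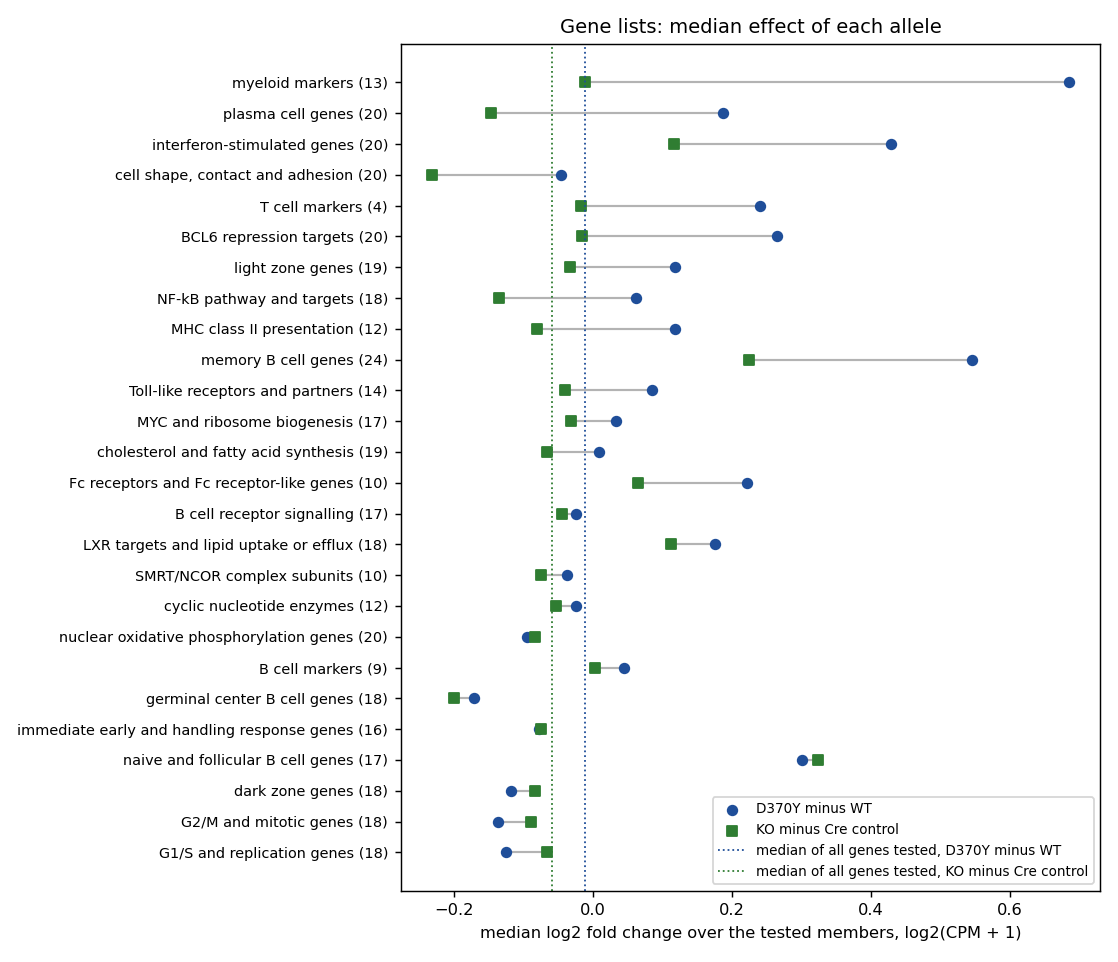
Median log2 fold change on the log2(CPM + 1) scale of each gene list with 4 or more tested members, for D370Y minus WT (circles) and KO minus Cre control (squares), with dotted lines at the medians of all genes tested. The naive list has both medians at about 0.3, while the myeloid list has 0.68 for D370Y and -0.01 for KO.

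No gene met the threshold with a KO effect above the D370Y effect. Among members of the gene lists with a higher KO effect, Mgll and Tbl1xr1 had the smallest p, and Abca1, also a gene of lipid handling, is described after its values were seen. Abca1, the cholesterol exporter, was 18.2, 25.5, 29.5, 14.01 and 15.4 CPM in KO against 8.53 to 11.1 CPM in Cre control, without overlap (KO effect 0.93 ± 0.17, adjusted p = 0.00402). It was 49.5, 50.02, 47.2, 59.1 and 86.3 CPM in D370Y against 47.5 to 51.1 CPM in WT (0.21 ± 0.20), and the difference of 0.72 ± 0.27 was not called (adjusted p = 0.502; 0.0439 with a replicate block). Mgll, a lipase of monoacylglycerols, rose with KO (0.89 ± 0.11) and had a D370Y effect of 0.33 ± 0.13, with a difference of 0.55 ± 0.18 (adjusted p = 0.324; called with DESeq2, adjusted p = 0.0398, and with library weights, 0.00818). Bank1, a B cell scaffold protein, had a difference of 0.35 ± 0.14 (adjusted p = 0.581). In the shape list, Ahnak, a giant scaffold protein, was spread widely: 16.4 to 42.7 CPM in D370Y, 8.51 to 13.2 CPM in WT, 2.31 to 5.24 CPM in KO and 2.202 to 4.84 CPM in Cre control (difference -1.51 ± 0.36, adjusted p = 0.125; called without KO 3, at -1.68, without D370Y 5, at -1.69, and with library weights, at -1.62).

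The number of called differences moved with single libraries, while the sign of each of the 13 did not. Leaving out one library at a time gave 4 (without WT 3) to 58 (without D370Y 5) called genes. Plac8, Ccnd2, Efcab7 and Capn11 were called in each of these fits, and Ffar2 in all but one. Counting a further fit without KO 3 and with TMM scaling, Emp2 was called in 14 of 19 such fits, Cxcl10 in 12, 2810025M15Rik in 11, Hip1 in 7, and S100a10, Hepacam2, Lyz2 and Celsr1 in 6. With TMM scaling 5 genes were called: Efcab7, Plac8, Ccnd2, Ffar2 and Capn11. Capn11 and Cxcl10 passed the filter only through D370Y, so their calls in these fits lend no support to a difference of effects. With a term for sex none was called, at differences of -0.73 to -1.57 for the 13, with Plac8 at -1.06 ± 0.27 (adjusted p = 0.185) and Ccnd2 at -1.27 ± 0.25 (adjusted p = 0.118).

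**Figure D5:**
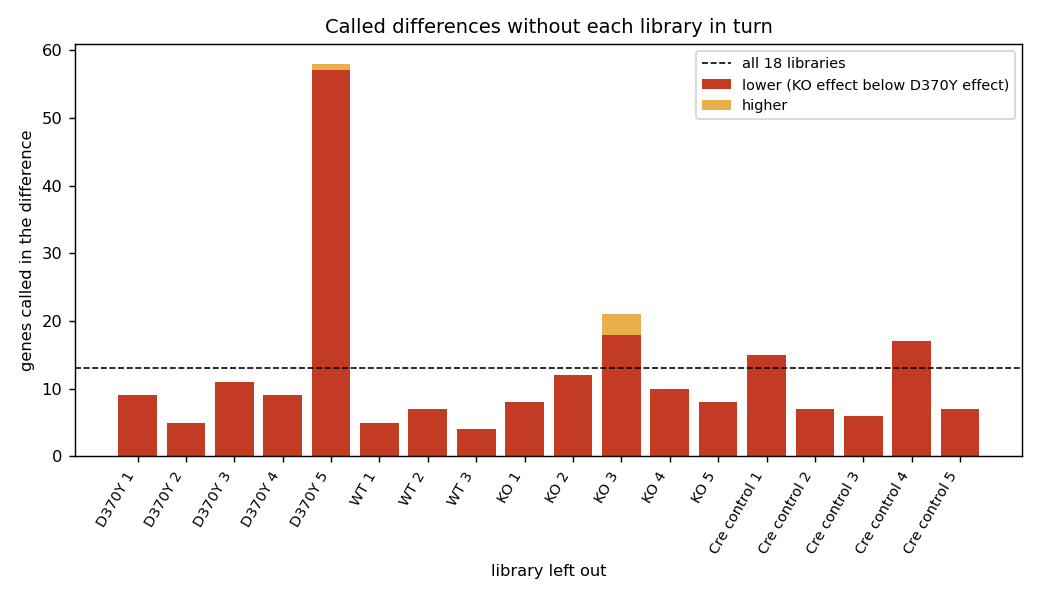
Number of genes with a called difference (vertical axis) after leaving out each of the 18 libraries in turn, split into lower and higher; the dashed line is the count with all libraries. The count runs from 4 without WT 3 to 58 without D370Y 5, and genes with a higher KO effect appear in few of the bars.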

How the data were processed

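RNA-seq of germinal center B cells was deposited by the authors as 1 table of gene symbols and CPM (read counts scaled to library size) per library. STAR and mm10 are named, without versions or roles, per the submitters' processing notes; the counter, annotation and strand setting are not given in the sources used here. Per the labels' protocols, only the KO and Cre control libraries have a named kit, TruSeq stranded. In the deposited CPM 100% of values were whole multiples of 1 read, within 0.01 read, so reads were recovered. Chromosomes came from GENCODE M21 (23382 listed symbols, 98.0% matched by symbol or by older RefSeq symbol, 465 unmatched). 3 reads were worth 0.0714 to 0.133 CPM in the 18 libraries, for counting error only; replicates were checked for identity, and none agreed within sampling noise (lowest chi-square per degree of freedom 3.80).

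Values were tested as log2(CPM + 1) with limma 3.58.1 in R 4.3.3 (group means, trend and robust moderation), two-sided, with Benjamini-Hochberg adjustment over 10580 autosomal genes with at least 1 CPM in 3 or more of 18 libraries; called means adjusted p below 0.05. The ImuBcl6 libraries were fitted alone (1 CPM in 5 or more), and the D370Y effects of the 2 backgrounds were compared in a 28-library fit added later. The script was tested on simulated data. Alternatives were the pseudocount, the filter, scaling, edgeR 4.0.16 and DESeq2 1.42.0 on recovered reads, a replicate block, a sex term, library weights and each library left out.

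Members, lists and tests were chosen with earlier results of these data known. Named genes are Tbl1xr1 and Bcl6; up to 12 called genes in each direction with a group mean of at least 5 CPM, predicted models left out; up to 3 called members of each list or its member of smallest p; genes called in both effects with opposite signs; and the 10 of same sign with the largest smaller effect. Cxcl10, Capn11, 2810025M15Rik, S1pr1, Gpr183, Gcet2, Itgam, Emr1, Ahnak, Abca1, Fscn1 and Myzap, and the genes of the closing section outside that rule, were named after their values were seen.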

Additional observations from a re-analysis of the deposited data

Results flagged for a closer look

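In 188 groups of 4 to 10 values, 19 held a library with a gap to the others that was large for the range of its group; chance gives about 1 in 20 such flags. KO 3 accounted for 6: listed genes took 64.4% of its reads against 82.6% to 84.6% in the other KO libraries, its B cell markers summed to 5407 CPM against 7364 to 8147 CPM and its T cell markers to 274 CPM against 428 to 485 CPM. It was low for Sdha (216 CPM against 288 to 310) and Nxph4 (1.48 CPM against 2.204 to 2.498) and high for Ahnak (5.24 CPM against 2.31 to 2.83). KO 4 was high for Tbx21 (16.4 CPM), for the beta-globin entry Beta-s (41.5 CPM) and for the summed erythroid markers (47.0 CPM), and KO 1 was high for Fscn1 (9.74 CPM).

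Cre control 3 alone had Capn11 reads (0.760 CPM) and was low for Gcet2 (285 CPM against 330 to 331). D370Y 1 was low for Mgll (8.55 CPM), and D370Y 5 was high for Bank1 (427 CPM) and Cd36 (189 CPM). D370Y 4 was low for Tyms (45.6 CPM) and for the share of reads on listed genes (78.7%), and high for 1700048O20Rik (11.02 CPM) and Gpr183 (37.1 CPM).

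The D370Y effect differed between cells with and without ImuBcl6, by a test of the difference, for 7 named genes. The ImuBcl6 effect minus the other was -2.18 for Emp2, -0.98 for Ccnd2, -1.32 for Efcab7, -1.23 for Celsr1, -1.96 for 1700048O20Rik, -0.88 for 2810025M15Rik and -3.33 for Capn11. The share of libraries with more Xist than Ddx3y is reversed between these backgrounds (5 of 5 D370Y and 0 of 3 WT, against 0 of 5 ImuBcl6 D370Y and 5 of 5 ImuBcl6), and its part in the values was not tested.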

How the results depend on the processing

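With all 18 libraries 13 genes had a called difference. The count was 26 with a pseudocount of 4, 8 without the low-value filter, 6 with at least 5 CPM, 5 with TMM scaling, 6 with edgeR (1 higher), 40 with DESeq2 (13 higher), 0 with a term for sex (742 higher and 1324 lower at an unadjusted p below 0.05), 189 with library weights, 59 with a replicate block, 6 with all 28 libraries and 24 without KO 3 with TMM scaling, a setting chosen after seeing the data. Leaving out 1 library gave 4 to 58; WT 1, 2 and 3, KO 1, 3 and 5, Cre control 2, 3 and 5 and D370Y 2 and 5 each moved it by over 1.5 times. The other alternatives for this count stayed within 1.5 times. Each of the 13 kept its sign in every alternative that could be run. For Capn11 and Cxcl10, which passed the filter only through D370Y, that lends no support to a difference of effects. Ccnd2 and Efcab7 lost the call with the sex term alone.

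KO calls numbered 243 (30.5% higher), against 538 with DESeq2 (50.4% higher), 1120 with library weights, 473 without KO 3 with TMM scaling and 157 to 451 without 1 library (451 without KO 3, 50.8% higher). D370Y calls numbered 242 (85.5% higher), against 146 with at least 5 CPM, 411 with CPM over listed genes, 381 with TMM scaling (64.6% higher), 626 with DESeq2 (47.8% higher), 57 with the sex term, 1107 with weights (62.7% higher), 808 without KO 3 with TMM scaling (42.0% higher) and 96 to 576 without 1 library (96 without WT 3, 576 without KO 3).

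Replicate numbers did not pair the libraries (correlations of deviations -0.225 to 0.229 between KO and Cre control, -0.0249 to 0.165 between D370Y and WT), and the replicate block moved the count of called differences from 13 to 59.

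Signs changed for uncalled values, and the cause was not tested. With the sex term the difference was -0.0354 for Sdha, -0.41 for Beta-s, 0.17 for Tmem26, -0.12 for Klf2 and -0.016 for Abcg1, the KO effect was 0.0214 for Hepacam2 and 0.0128 for Lyz2, and the D370Y effect was -0.21 for Abca1. The difference was -0.017 for Zeb2 with a pseudocount of 4, 0.00992 for Nxph4 with weights, and with 1 library left out ran from -0.19 (without KO 4) to 0.70 for Beta-s, from -0.0375 (without D370Y 3) to 0.18 for A430078G23Rik and from -0.0183 (without WT 1) to 0.28 for Abcg1. The KO effect of Hepacam2 was 0.0186 with CPM over listed genes, 0.0211 with TMM, 0.028 with edgeR, 0.0252 with DESeq2 and ran from -0.0737 to 0.0159 with 1 library left out (above 0 without KO 4, Cre control 3 or Cre control 5). That of Plac8 ran from -0.0188 to 0.13 (below 0 without KO 2, KO 4 or Cre control 4), that of Capn11 from -0.20 to 0 (without Cre control 3) and that of Emr1 from -0.0314 (without KO 4) to 0.24. The D370Y effect of Abca1 was -0.0021 with the replicate block, and that of Fscn1 ran from -0.15 to 0.10 (above 0 without D370Y 3 or WT 2). Depth limits the genes under a few CPM, in which 3 reads are worth up to 0.133 CPM.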

Other observations

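Several further lists leaned to one side without a called difference. Of 18 NF-kB pathway genes 16 had a KO effect below the D370Y effect (median -0.19), as did 11 of 12 genes of MHC class II presentation (median -0.19), against 63.5% of all genes; neither allele had a called effect on any member of these lists. The lean was smaller without KO 3 (14 of 18, median -0.0954, and 10 of 12, median -0.0848) and without KO 3 with TMM scaling (10 of 18, median -0.0476, and 8 of 12, median -0.0371). It was larger with a term for sex (16 of 18, median -0.38, and 12 of 12, median -0.53), with which the median of all genes was -0.19. Cholesterol and fatty acid synthesis (19 genes), B cell receptor signalling (17) and oxidative phosphorylation (20) had median differences of -0.05, -0.04 and -0.02. All 3 medians were above 0 without KO 3 (0.0332, 0.0672 and 0.125) and with TMM scaling (0.0407, 0.0587 and 0.0786). With a term for sex they were -0.23, -0.21 and -0.43.

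The control groups with the same genotype label stood far apart for some genes, abundant ones included. Top2a averaged 1192 CPM in WT and 253 CPM in Cre control, and Bub1 134 and 24.4 CPM. Bcl6 averaged 363 and 350 CPM. Degs2, a sphingolipid desaturase and hydroxylase, was at 47.2 ± 2.7 CPM (SD, n = 5) in Cre control and 44.9 ± 6.4 CPM in KO, and at 0.173 ± 0.073 CPM (n = 3) in WT and 0.00737 ± 0.016 CPM in D370Y. On recovered reads edgeR and DESeq2 both called its difference, at 3.90 and 4.02, while on log2(CPM + 1) it was 0.14 ± 0.15 (limma, adjusted p = 1). Cfb, complement factor B, was at 3.29 ± 0.37 CPM in Cre control, 3.25 ± 0.52 CPM in KO, 0.130 ± 0.042 CPM in WT and 0.603 ± 0.15 CPM in D370Y, with a difference of -2.11 by edgeR and -0.52 on log2(CPM + 1). Degs2 and Cfb averaged below 1 CPM in WT and D370Y and passed the filter only through KO and Cre control. Their calls therefore lend no support to a difference of effects, and for such genes its size depends on the scale.

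Without KO 3, the genes called with a KO effect above the D370Y effect were Cat, which encodes catalase (0.37), the aldehyde dehydrogenase gene Aldh2 (0.41) and the histone variant gene H2afy (0.32).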
